A study of Mus musculus with 18 samples.

Results

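Early enterocytes are the young absorptive cells that have left the dividing compartment of the intestinal crypt but do not yet carry the full enzyme and lipoprotein equipment of the villus. In the 4 libraries of cells sorted for Lgr5-driven GFP, 1322 of 25204 barcodes that passed the quality limits were such cells, and all 8 libraries of the single-cell experiment held 42869 passing barcodes. A barcode was taken when it had 1000 to 18000 unique molecular identifiers (UMIs, which count captured transcripts), 200 to 4000 genes and under 5% of UMIs from mitochondrial genes. In addition, Fabp1, Fabp2, Rbp2 and Arg2 together had to make up at least 1% of its UMIs, Apoa1, Apoa4 and Fabp6 together under 0.5%, and 8 mitosis genes together no more than 2 UMIs. These thresholds use measured values, so the levels of those 15 genes are given as a description only.

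The cells came from the ileal crypts of male mice in the C57Bl6 background, 60 to 65 days old, that had received 1 intraperitoneal dose of tamoxifen at 70 mg/kg in corn oil and were analysed 5 days later. Lgr5+WT cells came from Lgr5-GFP-CreERT2 mice, and Lgr5+Setdb1KO cells from mice that carried the same allele together with Setdb1lox/lox, so both genotypes were treated with tamoxifen and expressed Cre. Each genotype had 2 libraries from separate biological replicates. The Lgr5-GFP-CreERT2 allele places GFP and an inducible Cre under the Lgr5 gene, is silent in part of the crypts, and acts in Lgr5-expressing stem cells, from which the enterocytes descend. In the comparison with the lineage-traced sort, 2 libraries per genotype came from mice that also carried nTnG, a nuclear reporter that turns from red to green after Cre acts. Setdb1 encodes a histone methyltransferase that places methyl groups on lysine 9 of histone H3.

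Stem cells at the crypt base divide and pass through a transit-amplifying stage, and cells in which Notch signalling stays active take the absorptive path. As these cells move upward they stop dividing, build a brush border of microvilli, and switch on in sequence fatty acid binding proteins, digestive hydrolases, transporters and finally the apolipoproteins that load dietary fat into chylomicrons. Enterocytes also present antigen on MHC molecules and secrete C-type lectins of the Reg family that act on gut bacteria.

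The 2 Lgr5+WT libraries held 123 and 303 early enterocytes and the 2 Lgr5+Setdb1KO libraries 268 and 628. The members carried 1049338, 2249503, 2893345 and 3409673 UMIs in that order (WT 1, WT 2, KO 1, KO 2, the order used throughout), with a median of 8115, 6622, 11128 and 5027 UMIs and of 2219, 1888, 2582 and 1611 genes per member. The depth of the knockout libraries therefore lay on either side of that of the wild-type libraries. The 4 rule genes for the absorptive state held a median of 1.46, 1.95, 2.38 and 1.78% of a member's UMIs, and 598 of 1322 members lay at 2% or above. No mitosis UMI was counted in 1038 members.

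Transcripts of the gene named in the sort were rare in these cells. An Lgr5 UMI was found in only 6 of 1322 members (0.454%, exact binomial 95% interval 0.167 to 0.985%), and the summed level of Lgr5 was 0 to 1.47 CPM (counts per 1000000 UMIs) in the 4 libraries. Over all 25204 passing barcodes of the sort 1709 (6.78%) had an Lgr5 UMI, at 18.6, 13.3, 11.5 and 7.86 CPM in the order given above. In the 989 cells of the same libraries that had an Lgr5 UMI, under 1% of absorptive rule genes and no more than 2 mitosis UMIs, called Lgr5-positive here, Lgr5 reached 155 to 236 CPM, a level that follows from how they were chosen. Olfm4, a crypt base stem cell gene, stood at 27.6, 161, 25.9 and 118 CPM in early enterocytes against 8573, 6782, 5611 and 4290 CPM in Lgr5-positive cells. The GFP feature of the reference was too rarely counted to check the gate, since 1 of 1322 early enterocytes and 10 of 989 Lgr5-positive cells had a GFP UMI. GFP protein was the sorting criterion, and its amount in these cells was not measured here.

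Setdb1 itself was counted in few transcripts at this stage. Over all passing barcodes it stood at 11.3 and 9.93 CPM in the wild type and 5.27 and 6.21 CPM in the knockout, and in Lgr5-positive cells at 15.6 and 17.0 against 3.79 and 4.08 CPM. Early enterocytes had 3 and 8 Setdb1 UMIs in the wild type and 11 and 17 in the knockout, which is 2.86, 3.56, 3.80 and 4.99 CPM. The knockout to wild-type ratio in early enterocytes was 1.33 with a counting interval of 0.643 to 2.97. No loss of Setdb1 transcript was thus seen in them, within an interval that covers counting error only. Counting at the 3′ end of transcripts does not measure the floxed exon, so these levels do not check the deletion in the members.

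The 3 markers that were not part of the rule were higher than in Lgr5-positive cells and lower than in mature enterocytes in every library. Chp2, a calcineurin-like regulator of the sodium-proton exchanger, stood at 216, 207, 175 and 171 CPM in early enterocytes and at 330, 308, 274 and 228 CPM in mature enterocytes, which met the same limits except that the 3 apolipoprotein-stage genes reached 0.5%. Car4, a membrane carbonic anhydrase, read 429, 329, 269 and 378 CPM against 589, 401, 498 and 435 CPM. St3gal4, a sialyltransferase, read 559, 493, 495 and 503 CPM against 889, 785, 710 and 688 CPM. Each of these markers was thus present in every library and lower than in the mature cells of that library, while in Lgr5-positive cells Car4 and St3gal4 were near the bottom of the scale in the plot of marker levels by class. The classes were cut on the absorptive and apolipoprotein-stage genes, so this order of markers that rise with them follows from the cut.

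**Figure D1:**
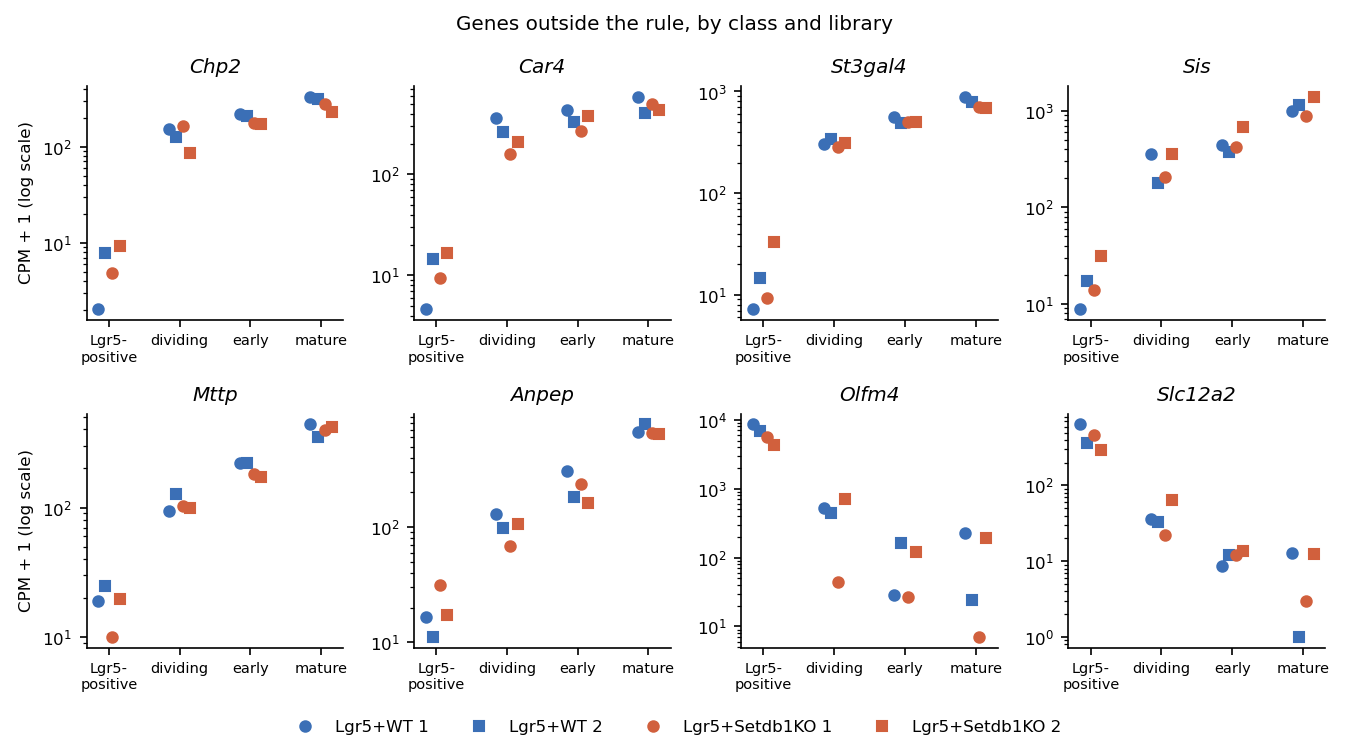
Levels of 8 genes outside the rule in Lgr5-positive cells, dividing cells within the enterocyte limits, early enterocytes and mature enterocytes, as CPM + 1 on a log axis. Each point is 1 of the 4 Lgr5+ libraries, and early enterocytes lie between dividing and mature cells for Sis, Mttp and Anpep and far below Lgr5-positive cells for Olfm4 and Slc12a2.

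Cells on either side of the thresholds differed in degree. The 304 barcodes with 0.75 to 1% of absorptive rule genes had 149 CPM of Chp2, 245 of Car4 and 386 of St3gal4, and the 239 members up to 0.25 percentage points above 1% had 154, 278 and 459 CPM. At the upper limit, Sis stood at 821 CPM in the 32 members with 0.4 to 0.5% of apolipoprotein-stage genes and at 924 CPM in the 28 barcodes with 0.5 to 0.6%. There were 55 members with 2 mitosis UMIs, and 27 barcodes were just outside with 3.

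Early and mature enterocytes differed in the digestive and absorptive equipment. All 11 brush border enzymes measured at 50 CPM or more in either class were lower in early than in mature cells in all 4 libraries, with a median log2 ratio of -1.64, where the median over 2403 genes was 0.08. Sucrase-isomaltase (Sis), which splits table sugar and starch ends, stood at 440, 374, 417 and 669 CPM against 995, 1139, 879 and 1397 CPM in mature cells. Aminopeptidase N (Anpep) stood at 305, 181, 235 and 162 CPM against 671, 779, 659 and 647 CPM. Fat absorption genes were lower in 20 of 21 (median -0.95), nutrient and ion transporters in 15 of 17 (median -1.04) and xenobiotic metabolism genes in 30 of 36 (median -0.83). For such counts, here and against the other classes below, no share over all genes was computed. Mttp, which loads lipid onto apolipoprotein B, read 218, 218, 181 and 172 CPM against 436, 349, 391 and 419 CPM. The 4 MHC class II genes at this level were also lower in all 4 libraries (median -2.20).

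Among all 2403 genes, 66 (2.75%) were on average at least 2-fold higher and 135 (5.62%) at least 2-fold lower in early than in mature enterocytes with the same sign in every library. Apoc2, a cofactor of lipoprotein lipase, had the lowest log2 ratio of early to mature cells (-4.31 ± 0.45, SD over 4 libraries) and read 16.2, 35.6, 22.1 and 25.5 CPM against 589, 686, 490 and 1014 CPM. Guca2b, which encodes uroguanylin, read 121, 107, 204 and 155 CPM against 1177, 1470, 1716 and 1752 CPM. Also far lower in early cells were Cyp3a11, Leap2, Ggt1, Selenop, Reg3b and H2-Aa. Gip of enteroendocrine cells, Rgs13 and Alox5ap of tuft cells and Clca1 of goblet cells were among the genes that stood highest in early relative to mature cells. The 3 highest members held 62.5 to 99.2% of the Gip UMIs in a library, and Clca1 stood at 121 CPM in both classes of KO library 2. Fabp5 and Cd24a were also higher, by 3.13 and 2.83 on the log2 scale.

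The transcription factors of the absorptive program did not share this direction. Of 13 measured, 3 were higher and 3 lower than in mature cells in all 4 libraries, with a median log2 ratio of -0.06. Hnf4g, a nuclear receptor of enterocyte genes, read 144, 117, 103 and 136 CPM in early and 159, 180, 84.7 and 116 CPM in mature cells. Klf5, a factor of proliferating crypt cells, stood at 232, 201, 231 and 213 CPM in early cells and 194, 128, 173 and 148 CPM in mature cells. Creb3l3, which acts on lipid genes, was lower in early cells, with 89.6, 145, 114 and 80.4 CPM against 200.1, 221, 266 and 223 CPM. Cps1, the mitochondrial enzyme that starts citrulline synthesis, ran the other way, at 146, 110, 131 and 143 CPM in early and 41.2, 40.7, 74.6 and 31.9 CPM in mature cells.

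Against the 148 cells that met the enterocyte limits but had more than 2 mitosis UMIs, fewer genes differed. Of 2450 genes, 18 (0.735%) were on average at least 2-fold higher and 65 (2.65%) at least 2-fold lower in early enterocytes, with the same sign in every library. All 10 mitosis genes outside the rule and all 7 DNA replication genes were lower, with medians of -2.60 and -1.36. The dividing cells were chosen on mitosis UMIs, so this direction follows from how the classes were cut. Birc5, a spindle passenger protein, stood at 8.58, 20.0, 14.9 and 16.1 CPM in early cells and 234 and 348 CPM in dividing cells of the wild type. In the other direction 6 of 7 brush border enzymes were higher in early cells, with a median of 0.81. Reg1, which encodes a secreted lectin, read 3287, 3264, 2567 and 2595 CPM and was higher than in dividing cells by 1.75 on the log2 scale.

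Compared with Lgr5-positive cells, more genes differed. Of 2660 genes, 442 (16.6%) were on average at least 2-fold higher and 290 (10.9%) at least 2-fold lower in early enterocytes, with the same sign in all 4 libraries. Stem cell genes were lower in 15 of 15 (median -2.48), DNA replication genes in 13 of 13 (median -1.93) and MHC class II genes in 5 of 5 (median -2.50). Lgr5-positive cells were chosen for an Lgr5 UMI and few absorptive transcripts, so the direction of the stem cell genes follows from that choice. Paneth markers were lower in early cells in 13 of 13 (median -2.99). Lyz1, a Paneth cell lysozyme, stood at 590, 1812, 267 and 4906 CPM in Lgr5-positive cells, so that class held Paneth transcripts unevenly. Their part in this contrast was not tested. Xenobiotic metabolism genes were higher in 28 of 28, with a median of 2.36 where the median of all genes was 0.17. Reg1 and Olfm4 had the largest ratios in the 2 directions, and for Olfm4 the log2 ratio was -6.38. Slc12a2, the basolateral chloride cotransporter of crypt cells, stood at 7.62, 11.1, 11.1 and 12.6 CPM against 639, 363, 465 and 291 CPM.

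Signs of other lineages were measured alongside. Goblet, Paneth, tuft and enteroendocrine markers together exceeded 1% of UMIs in 8, 23, 33 and 76 members and 5% in 4, 13, 18 and 24. Summed goblet markers stood at 4853, 10312, 6561 and 7567 CPM, Paneth markers at 1390, 2617, 2830 and 5233 CPM, tuft markers at 556, 469, 657 and 535 CPM and enteroendocrine markers at 800.5, 405, 1663 and 1422 CPM. Paneth transcripts were also plentiful in the barcodes with 10 to 100 UMIs that stand for free RNA, at 69959, 93675, 119506 and 157639 CPM, and they ranked the 4 libraries in the same order as in the members. T cell markers were close to absent, with a sum of 6.67, 3.56, 1.73 and 1.76 CPM and 11 or 12 of 14 genes at 0, and red cell markers did not exceed 0.587 CPM. The 4 absorptive rule genes made up 0.167, 0.222, 0.574 and 0.261% of the free RNA, below the 1% limit in every library. Between 0 and 3 members per library shared a barcode with another Lgr5+ library and none with a member of another.

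The share of passing barcodes that were early enterocytes was 2.58 and 4.94% in the wild type and 9.28 and 5.50% in the knockout. Both knockout libraries were thus, at the 1% limit, above both wild-type libraries, with means of 3.76% ± 1.67 and 7.39% ± 2.67 (SD, n = 2 each). The difference of 3.63 percentage points had an exact two-sided permutation p of 0.333, which is the smallest that 2 against 2 libraries allow. With the enterocyte limit at 2% the shares were 0.714, 2.41, 5.61 and 2.22%, so that KO library 2 lay below WT library 2 (difference 2.35 points, exact permutation p = 0.667). Measured instead as a share of early and mature enterocytes together, the values were 86.0, 92.1, 86.2 and 88.2%, and the order of the genotypes was not the same (difference -1.87 points, exact permutation p = 1). The sort sets which cells enter the libraries, so these shares are not shares of the tissue.

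Residual DNA replication did not separate the genotypes. With every member thinned to 1000 UMIs, 0.813, 1.65, 0.373 and 1.27% of members held at least 3 UMIs of 39 replication genes (exact permutation p = 0.667), and unthinned shares were 35.8, 39.9, 60.8 and 20.5%. The cell-to-cell variation of 985 genes, taken as the median coefficient of variation over 123 thinned members per library, was 182.0, 185.1, 185.6 and 182.9%, a difference of 0.694 points with an exact permutation p of 0.667. Over the 281 genes with a mean of at least 0.5 UMI it was 85.5, 82.5, 87.4 and 87.5%, higher in both knockout libraries by 3.43 points on average (exact permutation p = 0.333). Neither design could go below a p of 0.333.

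Between genotypes, 56 of 8292 genes tested (0.675%) changed in early enterocytes at an adjusted p under 0.05 by edgeR's quasi-likelihood test on UMIs summed per library. Of these, 36 (0.434%) were higher and 20 (0.241%) lower in the knockout, and the median log2 fold change of all genes was -0.00. Without WT library 1 or 2 the count was 27 or 25, and without KO library 1 or 2 it was 114 or 133. Of the genes named here, Abhd17a, Adh6a, Alad, Lamtor3, Pccb, Plscr2, Reg3b and Tmem252 passed under every alternative that gave them a value. That was 17 alternatives, or 16 for Plscr2 and Reg3b. Among the called genes of smallest p were losses of Adh6a, Pccb and Reg3b and gains of Plscr2, Alad and Snhg1. Larger fitted gains than those of Alad and Snhg1 were called for genes with few wild-type UMIs, such as Mptx1 with 0, 9, 52 and 238 UMIs. In the free RNA, 17 of the 35 called genes named here differed between the genotypes without overlap and in the same direction as in the members, where 18.5% of all genes tested did. Alad was one of them, at 72.8, 80.9, 169 and 148 CPM, and for Cyba, Defa21, Defa22, Kcne3 and Snhg1 the free RNA lay above the members in all 4 libraries. The part of free RNA in these calls was not tested. Because the wild type and the knockout had 2 libraries each, the values of every library are given first, in CPM of the summed members.

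Adh6a (chr3:138313286-138331134, GRCm38.p6), an alcohol dehydrogenase, stood at 1401 and 1098 CPM in the wild type and at 105 and 150 CPM in the knockout. Its log2 fold change was -3.30 ± 0.17 (SE), with an adjusted p of 4.08e-07. Thinned to 1000 UMIs each, 65.0 and 62.7% of wild-type members and 7.84 and 14.6% of knockout members had an Adh6a UMI, and unthinned the shares were 94.3, 94.4, 42.2 and 42.7%. In Lgr5-positive cells (median 5666, 5178, 7815 and 3872 UMIs), where the gene is nearly silent, the thinned share was 1.31 and 0.778% in the wild type and 0 of 163 and 0 of 263 cells in the knockout, which by the limit of 3 counts allows up to 1.84 and 1.14% of cells with a UMI at this thinned depth. The 3 highest knockout members carried 14.4 and 4.31% of its UMIs. In the free RNA Adh6a stood at 111, 33.7, 14.7 and 18.5 CPM, also lower in the knockout and below the members in every library. Adh1 (chr3:138277585-138290698), a retinol-oxidising neighbour 22.6 kb away, changed in the other direction, from 268 and 228 CPM to 362 and 403 CPM (log2 fold change 0.62 ± 0.12, adjusted p = 0.0335). The assignment of reads that match both Adh6a and its paralogue Adh6b was not checked.

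Pccb (chr9:100982032-101034940) encodes the beta subunit of propionyl-CoA carboxylase, which prepares propionate for the citric acid cycle. It stood at 274 and 228 CPM in the wild type and at 45.3 and 41.6 CPM in the knockout (log2 fold change -2.54 ± 0.13, adjusted p = 4.08e-07). In Lgr5-positive cells Pccb read 31.7 and 31.9 CPM against 40.9 and 45.7 CPM. The knockout level in early enterocytes was thus about that of the Lgr5-positive cells, and whether the effect differs between these classes was not tested.

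Reg3b and Reg3g, both Reg3 lectins, fell. Reg3b (chr6:78370885-78373466), a secreted lectin that acts on Gram-negative bacteria, stood at 1512 and 2826 CPM in the wild type and at 479 and 509 CPM in the knockout (log2 fold change -2.17 ± 0.23, adjusted p = 4.41e-04). Reg3g (chr6:78466269-78468874), which lies 92.8 kb away and acts on Gram-positive bacteria, stood at 1361 and 1510 CPM against 254 and 636 CPM (-1.70 ± 0.29, adjusted p = 0.0169). The genotypes did not overlap for either gene, but the call of Reg3g was lost without WT library 1 (adjusted p = 0.141) or WT library 2 (adjusted p = 0.261) and by the Wald test of DESeq2 (adjusted p = 0.673). Of the 9 Reg family and related lectin genes tested these were the 2 called, both lower (0.241% of all genes were called lower), and the family median was -0.50. Reg1 stood at 3287, 3264, 2567 and 2595 CPM and was not called (adjusted p = 0.193). At 1000 UMIs per member, 42.3 and 38.3% of wild-type members and 16.0 and 12.1% of knockout members had a Reg3b UMI, and in Lgr5-positive cells the shares were 7.84, 15.2, 3.68 and 5.32%. Unthinned, 56.9, 70.3, 37.7 and 26.0% of members had one. In the free RNA Reg3b stood at 956, 1052, 610 and 314 CPM and Reg3g at 544, 681, 203 and 401 CPM, also lower in the knockout, and its part in the members' values was not tested.

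Other genes were called lower too. Tmem252 went from 54.3 and 61.8 CPM to 20.0 and 15.8 CPM (log2 fold change -1.74), and Lamtor3, a scaffold of the lysosomal Ragulator complex, from 51.5 and 56.5 CPM to 17.6 and 17.0 CPM (-1.68). Hsd17b2, which inactivates oestradiol and testosterone, went from 104 and 94.2 to 51.5 and 48.4 CPM (adjusted p = 0.00347), and Cyba, a subunit of NADPH oxidases, from 108 and 134 to 44.2 and 59.2 CPM (-1.26), with 260, 202, 85.9 and 80.1 CPM in the free RNA. The libraries of the genotypes were also separate for Muc13, a membrane mucin, which read 375, 365, 229 and 214 CPM, for Dmbt1, a secreted scavenger receptor protein, which read 773, 825, 531 and 506 CPM, and for AA467197, which read 60.0, 57.3, 21.8 and 28.4 CPM.

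Plscr2, a phospholipid scramblase family gene, went from 0 and 1 UMIs in the wild type to 74 and 91 UMIs in the knockout, which is 0, 0.445, 25.6 and 26.7 CPM. The ratio of the pooled counts was 86.4 with a counting interval of 15.3 to 3431, and the edgeR adjusted p was 1.05e-04. It lies 3.04 kb from its paralogue Plscr1, which was also called higher (log2 fold change 1.04). Reads shared by the pair make the assignment uncertain. Alad, which makes porphobilinogen in haem synthesis, rose from 78.1 and 84.9 CPM to 218 and 196 CPM (log2 fold change 1.31 ± 0.13, adjusted p = 2.87e-04). Its neighbour Hdhd3, 3.78 kb away, was also called higher (1.00). Snhg1, a host gene of small nucleolar RNAs, rose from 32.4 and 38.7 to 101 and 104 CPM (1.46 ± 0.16). Abhd17a, a depalmitoylating enzyme, rose from 179 and 179 to 366 and 316 CPM (0.91), Kcne3, a potassium channel subunit, from 19.1 and 25.3 to 65.3 and 54.8 CPM (1.34), and Rbm3, an RNA-binding protein induced by cold, from 239 and 260 to 500.5 and 426 CPM (0.86). Nat8 rose from 41.9 and 33.3 to 99.9 and 82.1 CPM (1.28). Nat8f5, 9.4 kb away, was also called higher (1.42), and the assignment of reads that the 2 share was not checked.

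Of the genes called higher, 2 were Paneth cell defensins. Defa21 stood at 36.2, 32.5, 116 and 240 CPM in the members and Defa22 at 38.1, 43.6, 101 and 188 CPM, with log2 fold changes of 2.38 ± 0.30 and 1.78 ± 0.26. In the free RNA of the same libraries Defa21 stood at 1812, 1862, 6191 and 8080 CPM and Defa22 at 1747, 1572, 5380 and 7482 CPM, in the same order between genotypes. The part of free RNA in these values was not tested. Without WT library 1 or 2 the adjusted p was 0.0688 or 0.140 for Defa21 and 0.141 or 0.163 for Defa22. Gip, an incretin hormone, was also called (50.5, 216, 914 and 578 CPM, adjusted p = 0.0161), but the 3 highest members held 96.2, 98.1, 99.2 and 62.5% of its UMIs. With members over 1% secretory marker UMIs left out, the log2 fold change of Gip was 0.53 with an adjusted p of 0.747.

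**Figure D2:**
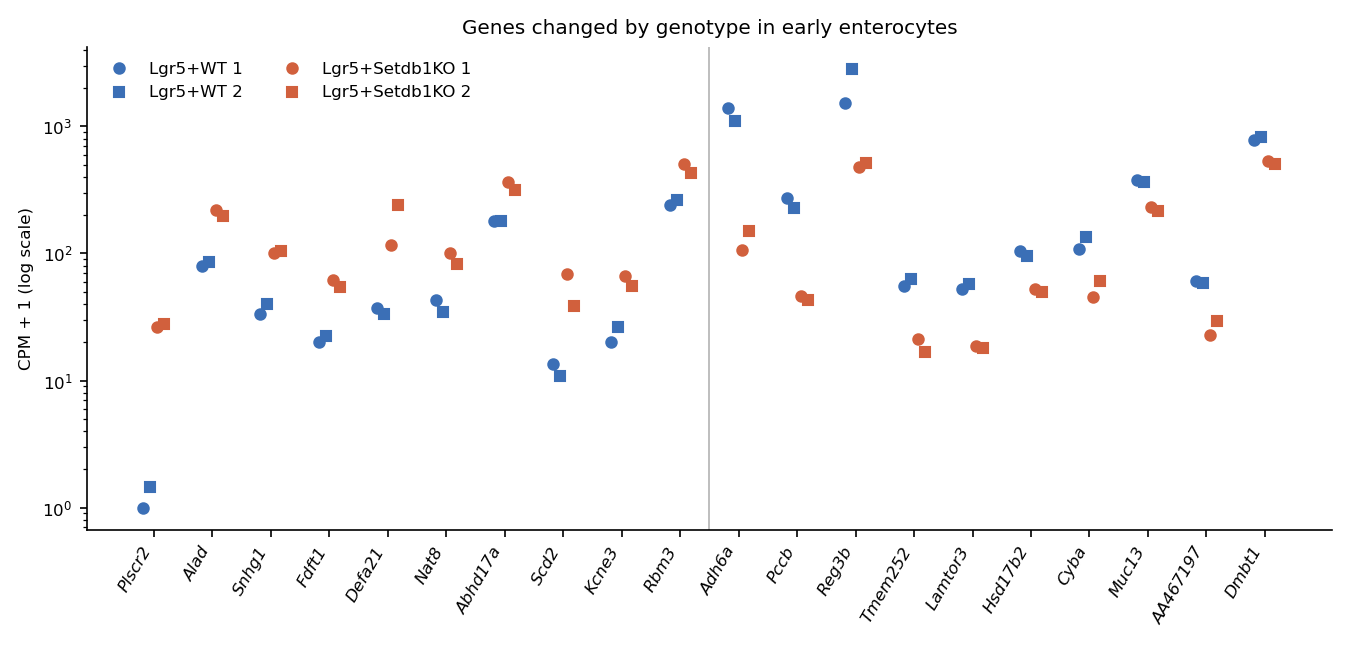
CPM of the 10 genes with the smallest p among those called higher and the 10 among those called lower, in the early enterocytes of each library, on a log axis with 1 added. Only called genes whose 2 Lgr5+WT points and 2 Lgr5+Setdb1KO points do not overlap were drawn.

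Genes of sterol synthesis were among those that rose. This list of 23 genes was drawn up after the values had been seen, so its direction is not independent evidence. Of 23 tested, 5 were called higher, among them the desaturase Scd2, and none lower (background 0.434% higher), 19 had a log2 fold change above 0, and the median was 0.64. Among all genes tested 5.14% were higher at an unadjusted p under 0.05, against 15 of these 23.

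The members called act in the steps up to squalene, with the exception of Scd2. Hmgcs1, which makes HMG-CoA, rose from 55.3 and 48.5 CPM to 123 and 97.7 CPM (log2 fold change 1.08 ± 0.15, adjusted p = 0.00390). Idi1, the isomerase of isopentenyl diphosphate, rose from 47.6 and 55.6 to 93.3 and 102 CPM (0.87 ± 0.15, adjusted p = 0.0174), and Fdps, which joins isoprene units to farnesyl diphosphate, from 176 and 173 to 290 and 305 CPM (0.75 ± 0.12, adjusted p = 0.00701). Fdft1, which commits farnesyl diphosphate to squalene, rose from 19.1 and 21.3 to 61.2 and 53.7 CPM (1.45 ± 0.18, adjusted p = 0.00147). Scd2, a fatty acid desaturase, rose from 12.4 and 9.78 to 68.4 and 37.8 CPM (2.26 ± 0.31, adjusted p = 0.00351). Apart from Fdft1 these calls needed both wild-type libraries and were lost without either. Without WT library 1 the log2 fold change was 1.12 for Hmgcs1, 0.76 for Idi1, 0.73 for Fdps and 2.36 for Scd2. Without WT library 2 it was 1.02, 1.07, 0.78 and 2.11. Of 17 alternatives, 2 lost the call of Hmgcs1, 5 that of Idi1, 3 that of Fdps and 1 that of Fdft1, and with members thinned to 1000 UMIs the log2 fold change of Idi1 was 0.28 (adjusted p = 0.915).

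Several members of the pathway missed the threshold while their libraries did not overlap. Sqle, the epoxidase of squalene, stood at 22.9, 16.0, 37.3 and 32.8 CPM (log2 fold change 0.89, adjusted p = 0.106) and Msmo1 at 61.9, 39.1, 101 and 74.5 CPM (0.83, adjusted p = 0.0925). Lss (1.16), Hsd17b7 (0.64), Nsdhl (0.55) and Cyp51 (0.34) were not called either, with no overlap between genotypes. In all, 17 of the 23 were higher without overlap, where 20.2% of all genes were, and Ebp alone was lower without overlap. Some later steps lay near or below 0 on the log2 scale, with Ebp at 185, 178, 172 and 165 CPM, Sc5d at 57.2, 41.3, 41.8 and 43.7 CPM and Dhcr7 at 24.8, 20.0, 23.8 and 20.2 CPM. Srebf2, which encodes the transcription factor of the pathway, stood at 25.7, 28.9, 32.1 and 25.8 CPM, and its adjusted p was 0.994.

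The promoter set used held 42 of the 56 called genes, and Fdps, Fdft1 and Scd2 were not in it. The promoters shown are those of the other 2 called sterol genes and of the Reg3 pair. They are the 250 bases before the start of each gene from RefSeq (GRCm38.p6), read 5′ to 3′ on the strand of the gene, at chr13:119690101-119690350 (plus strand) for Hmgcs1, chr13:8885356-8885605 (plus strand) for Idi1, chr6:78370635-78370884 (plus strand) for Reg3b and chr6:78468875-78469124 (minus strand) for Reg3g. Capitals mark matches on either strand to TCACNCCAC, the core of a sterol regulatory element, in the first pair and to TTCCNNGAA, the core of a STAT site, in the second.
Hmgcs1: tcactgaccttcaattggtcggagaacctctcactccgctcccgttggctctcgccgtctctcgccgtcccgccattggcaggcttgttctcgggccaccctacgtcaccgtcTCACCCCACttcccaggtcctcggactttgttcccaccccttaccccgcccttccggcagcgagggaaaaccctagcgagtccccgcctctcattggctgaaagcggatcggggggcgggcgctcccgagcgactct
Idi1: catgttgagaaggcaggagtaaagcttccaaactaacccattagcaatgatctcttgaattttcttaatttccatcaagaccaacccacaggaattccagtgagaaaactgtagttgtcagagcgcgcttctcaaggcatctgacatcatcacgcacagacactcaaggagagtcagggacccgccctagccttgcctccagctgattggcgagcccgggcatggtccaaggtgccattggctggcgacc
Reg3b: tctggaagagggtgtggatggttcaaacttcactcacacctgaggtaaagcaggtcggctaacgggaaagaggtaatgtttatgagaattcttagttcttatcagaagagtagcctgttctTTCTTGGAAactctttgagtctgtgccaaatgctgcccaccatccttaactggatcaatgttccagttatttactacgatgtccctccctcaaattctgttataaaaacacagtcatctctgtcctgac
Reg3g: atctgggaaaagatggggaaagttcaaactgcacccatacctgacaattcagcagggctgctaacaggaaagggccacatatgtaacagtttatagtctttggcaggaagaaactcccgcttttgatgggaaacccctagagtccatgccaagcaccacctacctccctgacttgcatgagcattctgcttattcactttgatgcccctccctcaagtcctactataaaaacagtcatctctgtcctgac
Hmgcs1 held 1 match to the sterol motif, whose first base lies 137 bases before the start, and Idi1 held none in this window. Reg3b held 1 match to the STAT motif, 129 bases before the start, and Reg3g none. Of 32851 mouse promoters of the same length, 346 (1.05%) held the first motif and 1333 (4.06%) the second. A match describes these letters and says nothing of binding.

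Antigen presentation genes had negative fold changes in the knockout but few calls. Of 18 MHC class I presentation genes tested, H2-T23 was called lower (86.7, 72.5, 52.2 and 44.9 CPM, log2 fold change -0.72 ± 0.15, adjusted p = 0.0481), against a background of 0.241%. This call was lost without WT library 1 (adjusted p = 0.232), WT library 2 (adjusted p = 0.173) or KO library 2 (adjusted p = 0.142), and in 11 of 17 alternatives in all. With members thinned to 1000 UMIs its log2 fold change was -0.0199 (adjusted p = 0.999). All 18 had a log2 fold change below 0, with a median of -0.44, and in 15 the genotypes did not overlap, where 20.7% of all genes tested were lower without overlap. H2-D1 stood at 548, 405, 311 and 336 CPM (adjusted p = 0.0904) and B2m, the shared light chain, at 455, 391, 291 and 325 CPM (adjusted p = 0.117).

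Class II genes had larger differences and a larger spread between libraries of a genotype. Cd74, the invariant chain that guides class II molecules, stood at 736 and 261 CPM in the wild type and 15.2 and 147 CPM in the knockout, and H2-Aa, an alpha chain, at 48.6, 9.34, 2.07 and 8.21 CPM. None of the 6 class II genes tested was called, their median log2 fold change was -2.01, and all 6 were lower at an unadjusted p under 0.05 (5.22% of all genes). Cd74 had a log2 fold change of -2.56 ± 0.64 and an adjusted p of 0.117, which became 0.0424 with the enterocyte limit at 2%, 7.62e-04 with the replicate number as a block, 5.17e-17 without KO library 1 and 1.57e-89 without KO library 2. It was 0.561 without WT library 1, 0.248 without WT library 2 and 0.9998 by the Wald test of DESeq2. At 1000 UMIs per member, 39.8 and 16.8% of wild-type and 1.87 and 7.64% of knockout members had a Cd74 UMI, and in Lgr5-positive cells of the same libraries the thinned shares were 80.1, 58.4, 22.1 and 43.7%. Unthinned, 82.1, 49.8, 5.60 and 20.7% of members had one. Cd74 in the free RNA stood at 589, 432, 49.5 and 222 CPM, in the same order of libraries as in the members and above them in all but WT library 1. The part of free RNA in the class II values was not tested. Of 22 interferon response genes, Irf1, a transcription factor induced by interferon, was called lower (86.7, 55.1, 34.9 and 36.7 CPM, adjusted p = 0.0371, background 0.241%), and the list's median was -0.47. The call of Irf1 was lost in 4 of 17 alternatives, with an adjusted p of 0.232 without WT library 1 and up to 0.339.

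**Figure D3:**
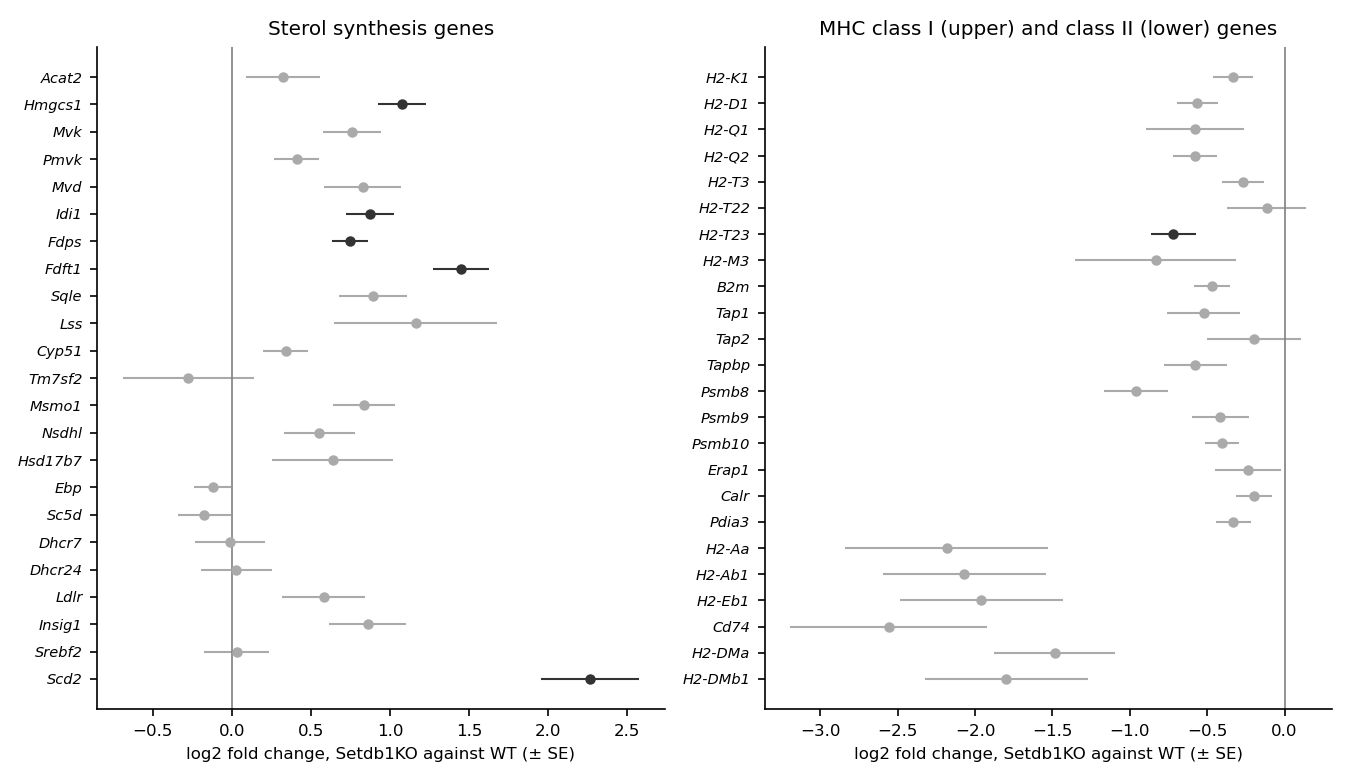
Log2 fold change between Lgr5+Setdb1KO and Lgr5+WT in early enterocytes (points, with SE bars) for the sterol synthesis genes and the MHC class I and class II genes. Dark points passed an adjusted p of 0.05, which Hmgcs1, Idi1, Fdps, Fdft1, Scd2 and H2-T23 did, and all class I and class II points lie below 0.

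The absorptive program itself held few calls. Of 16 brush border enzymes tested, Dpep1, a membrane dipeptidase, was called higher (42.9, 33.3, 85.4 and 61.3 CPM, log2 fold change 0.95, adjusted p = 0.0357, background 0.434%), and the list's median was 0.04. The call of Dpep1 was lost without WT library 1 (adjusted p = 0.133), WT library 2 (adjusted p = 0.403) or KO library 1 (adjusted p = 0.0906). Fat absorption (25 genes, median -0.07), nutrient and ion transport (29 genes, median -0.05), microvillus structure (20 genes, median -0.14), fatty acid oxidation (27 genes, median 0.00), arginine and polyamine enzymes (17 genes, median 0.05) and enterocyte transcription factors (31 genes, median -0.01) had no gene called. Of the transporters 9 were lower at an unadjusted p under 0.05, where 5.22% of all genes were, and 3 higher, where 5.14% were. Without overlap 11 were lower and 6 higher, against 20.7 and 20.2% of all genes. Of the microvillus genes 17 had a log2 fold change below 0, 2 were lower at an unadjusted p under 0.05 and 9 of 20 lower without overlap. The markers Chp2, Car4, St3gal4 and Sis had adjusted p-values of 0.343, 0.692, 0.841 and 0.463. Rbp2, a retinol-binding protein and rule gene, stood at 6606, 6874, 11260 and 8825 CPM.

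Some xenobiotic and retinoid enzymes were also called. Of 42 xenobiotic metabolism genes, 3 were called higher (0.434% of all genes) and none lower, with a median of 0.23. Cyp2b10, a cytochrome that is induced by drugs, read 2.86, 2.67, 12.8 and 12.3 CPM (log2 fold change 2.15 ± 0.41, adjusted p = 0.0307), Gsta3, a glutathione transferase whose reads may be shared with a near copy, 10.5, 7.11, 31.1 and 22.3 CPM (1.65 ± 0.29), and Akr1c19, a reductase, 366, 252, 595 and 459 CPM (0.77 ± 0.15). Gsta1 was lower in both knockout libraries, at 797, 699, 412 and 572 CPM, and was not called (adjusted p = 0.102). Of 13 retinol genes, Aldh1a1, which makes retinoic acid, was called higher with Adh1, at 90.5, 70.7, 155 and 131 CPM (0.83 ± 0.14, adjusted p = 0.0161). None of these calls held without WT library 2, where the adjusted p was 0.363 for Cyp2b10, 0.374 for Gsta3, 0.366 for Akr1c19, 0.258 for Aldh1a1 and 0.300 for Adh1.

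Stem cell genes (14 tested, median -0.03), DNA replication genes (15, median 0.10), mitosis genes outside the rule (10, median 0.15), Notch pathway genes (9, median -0.03), necroptosis genes (22, median -0.25), p53 targets (12, median -0.14), fetal-like genes (8, median -0.00), metallothioneins and zinc transporters (9, median -0.41) and the H3K9 methylation machinery (20, median 0.14) had no gene called. Among 15 dissociation stress genes Hsph1, a heat shock protein, was called lower (26.7, 29.8, 12.1 and 12.9 CPM, background 0.241%), and among 7 villus tip genes Cyp2b10 was the call. Paneth markers (14 tested, median 0.73) had the 2 defensins called higher (background 0.434%) and enteroendocrine markers (12 tested, median 1.02) had Gip, while goblet (11, median 0.10) and tuft markers (11, median 0.34) had none.

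Among the smaller changes, calls were lost without WT library 1 for Kcne3 (adjusted p = 0.0543), Rbm3 (0.0633), AA467197 (0.0590) and Hsph1 (0.0782), and without WT library 2 for Cyba (0.155), Dmbt1 (0.140), Muc13 (0.0671), Nat8 (0.0876), AA467197 (0.140) and Hsph1 (0.382). With the enterocyte limit at 2% the calls of Hsd17b2 (adjusted p = 0.408), Kcne3 (0.350) and Snhg1 (0.0574) were lost, and with members thinned to 1000 UMIs that of Nat8 (0.205).

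Of 54 called genes with a RefSeq position, 15 lay within 500 kb of another, a count for which no background was computed, and 6 were on chromosome 3, which holds 410 of 8157 tested genes and on which Setdb1 also lies (chr3:95323525-95357202). Adh6a, Adh1 and Lamtor3 (chr3:137918555-137928762) are among these. The called gene nearest to Setdb1 was Fdps of the sterol list, 6222 kb away.

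**Figure D4:**
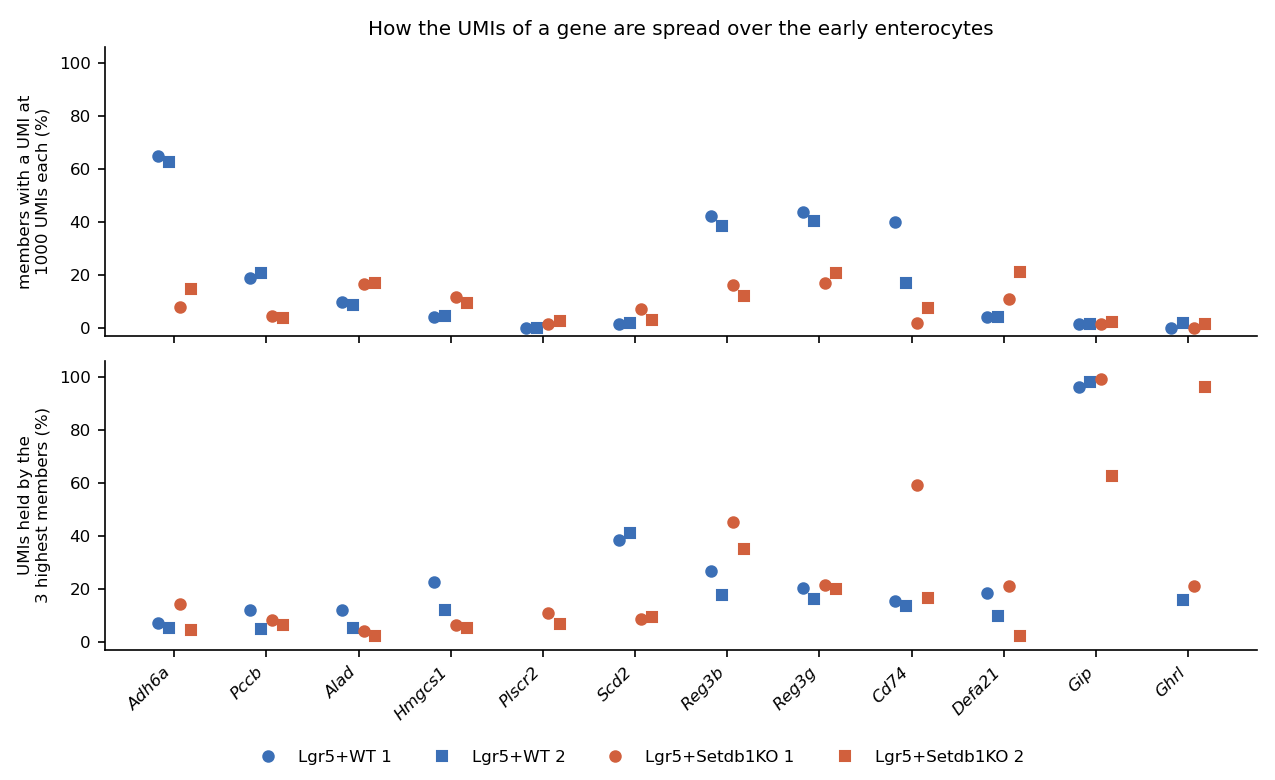
Upper panel, percentage of early enterocytes with a UMI of each gene after thinning to 1000 UMIs per member. Lower panel, percentage of the gene's UMIs held by the 3 highest members of the library, not drawn for libraries with under 10 UMIs. Adh6a was detected in 65.0 and 62.7% of wild-type and 7.84 and 14.6% of knockout members and is spread over many cells, whereas the 3 highest members held 62.5 to 99.2% of the UMIs of Gip.

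The genotype effect was then set against that in mature enterocytes of the same libraries, of which there were 20, 26, 43 and 84. The difference of the effects was tested as an interaction with library as a block, and 12 of 5842 genes (0.205%) passed, with the early effect higher for 3 (0.0514%) and lower for 9 (0.154%). Adh6a, Pccb and Reg3b were not among them. Adh6a stood at 2978, 2813, 224 and 330 CPM in mature cells (log2 fold change -3.40 ± 0.19) and at 819, 618, 65.6 and 136 CPM in dividing cells (-2.87 ± 0.32). The difference between the early and mature effects of Adh6a was 0.06 ± 0.18, that of Pccb 0.28 ± 0.31 and that of Reg3b -0.32 ± 0.13, with adjusted p-values of 0.997, 0.986 and 0.737. The lower level in the knockout was therefore measured from dividing to mature cells for Adh6a and for Pccb (mature -2.86, dividing -2.41).

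Of 6 class II genes tested, 3 had a lower effect in early than in mature cells, where 0.154% of all genes did. In mature cells Cd74 stood at 1554, 674, 452 and 1180 CPM, so that the genotypes overlapped (log2 fold change -0.45 ± 0.40), while in early cells they did not. In dividing cells it stood at 1123, 150, 6.98 and 284 CPM (-2.01 ± 1.00, not called). None of the 6 class II genes tested was called for a difference between the early and dividing effects, with a median log2 fold change of -1.70 over the 3 tested in dividing cells. The early effect was more negative than the mature one by -2.52 ± 0.24 for Cd74 (adjusted p = 8.95e-14), -1.83 ± 0.36 for H2-Ab1 and -2.05 ± 0.43 for H2-Aa. The Cd74 difference lost its call with the replicate numbers as a block (adjusted p = 0.935) and without WT library 1 (adjusted p = 0.0822), and those of H2-Ab1 and H2-Aa were also lost without WT library 1 (adjusted p = 0.729 and 0.740) and without KO library 1 (0.167 and 0.0520), and that of H2-Aa without KO library 2 (0.0683). Reg1 (0.48), Guca2a (-1.79), Clca1 (-3.97), S100a6 (-3.80), Ghrl (5.09) and Tm4sf4 (-10.39) also passed. Tm4sf4 had no UMI in the mature wild-type cells (0, 0, 80.7 and 130 CPM), so its fitted value sets no size. The Ghrl value rests on few cells, since 3 members held 96.4% of its UMIs in KO library 2 and without that library the difference was 1.27 (adjusted p = 1). The call of Reg1 was lost without any of the 4 libraries. That of S100a6 was lost without WT library 1, WT library 2 or KO library 1, with values of -11.30, -1.84 and -2.63, and Clca1 was 0.66 without KO library 2 and not called without WT library 1 (0.731) or WT library 2 (0.1002). Guca2a lost its call without WT library 2 (adjusted p = 0.229) and Tm4sf4 without WT library 1 (0.156). None of the 9 named calls against mature cells held under every alternative.

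Against dividing cells, 11 of 6744 genes (0.163%) differed in effect, all with a higher value in early cells. Those named here are Krt18, Reep5, Selenom, Nrgn, Rgs13, Lrmp, Sh2d6, Rac2 and Tuba1a. Of 10 tuft cell markers tested 4 were called, where 0.163% of all genes were. The dividing class had only 7, 23, 64 and 54 cells, and Rgs13, a tuft cell regulator of G protein signaling, had 17 UMIs among the 7 dividing cells of WT library 1, or 199 CPM. No gene was called when the enterocyte limit was raised to 2%, and without WT library 1 the adjusted p of Rgs13 was 0.995.

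Cells chosen by the same rule from the lineage-traced sort numbered 324, 129, 33 and 175, and the genotype effect differed there in 115 of 6477 genes (1.78%). The difference was higher in the Lgr5+ sort for 100 genes (1.54%) and lower for 15 (0.232%). These traced cells were less clean, since 323 of 324, 129 of 129, 14 of 33 and 120 of 175 had over 1% of UMIs from secretory markers. Paneth markers summed to 101292, 225601, 25541 and 21927 CPM in them and to 405680, 454720, 184077 and 273775 CPM in the free RNA, higher in the wild type in both. The median traced cell had 1700.5, 1874, 2618 and 3215 UMIs. The traced genotypes also differed in maturity. Mature cells numbered 257, 103, 0 and 6, members with 0.4 to 0.5% of apolipoprotein-stage genes 47, 11, 0 and 0, and of 7 villus tip genes 5 were called lower in the traced knockout, where 4.29% of all genes were. Setdb1 over all passing barcodes of the traced sort stood at 6.07 and 4.25 CPM in the wild type and at 11.01 and 7.70 CPM in the knockout. In traced Lgr5-positive cells it read 4.92, 6.50, 5.61 and 5.47 CPM, from 3, 1, 2 and 4 UMIs. The lower Setdb1 level of the knockout in these cell sets of the Lgr5+ sort was thus not seen in the traced sort. The part of these values in the differences between the sorts was not tested.

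Adh6a and Pccb were lower in the knockout in the Lgr5+ sort and not called in the traced sort. In traced cells Adh6a stood at 239, 257, 132 and 322 CPM (log2 fold change -0.19 ± 0.35) and Pccb at 50.1, 38.0, 66.1 and 42.1 CPM (-0.09 ± 0.42). For both genes the traced wild type lay nearer to the knockout than to the wild type of the Lgr5+ sort. For Adh6a these stood at 105 and 150 CPM and at 1401 and 1098 CPM. What set the wild types of the 2 sorts apart was not tested. The differences of the traced from the Lgr5+ genotype effects were -3.21 ± 0.43 for Adh6a and -2.46 ± 0.38 for Pccb, with adjusted p-values of 1.24e-04 and 5.99e-04. Both calls were lost without traced KO library 2, where the differences were -1.94 and -2.61. Dmbt1 moved in opposite directions, from 666 and 507 to 1918 and 1251 CPM in traced cells (1.17 ± 0.31) and from 773 and 825 to 531 and 506 CPM in the Lgr5+ sort (-0.65 ± 0.11), with a difference of -1.82 ± 0.30 (adjusted p = 0.0537 without traced WT library 2).

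For the Reg3 lectins and Cd74 the effect was negative in both sorts. Reg3b stood at 3111, 2461, 819 and 978 CPM in traced cells (log2 fold change -1.84 ± 0.32), Reg3g at 2672, 2841, 661 and 819 CPM (-2.11 ± 0.32) and Cd74 at 749, 615, 41.3 and 78.3 CPM (-3.52 ± 0.38), and all 3 were called there, where 174 of 3709 genes passed (4.69%, with 0.404% higher and 4.29% lower). The differences between the sorts were -0.36 ± 0.40, 0.37 ± 0.45 and 0.86 ± 0.89 and were not called. In the traced free RNA Reg3b stood at 1232, 1837, 763 and 609 CPM. Reg3g stood there at 1413, 2401, 901 and 886 CPM and Cd74 at 210, 370, 289 and 255 CPM. The part of free RNA and of the difference in maturity in the traced effects was not tested. Plscr2 had 0, 0, 0 and 1 UMIs among the 698396, 315686, 120941 and 664478 UMIs of the traced members. The Lgr5+ knockout members had 74 and 91 among 2893345 and 3409673. The gain was thus not seen in the traced sort, at lower depth.

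Xenobiotic enzymes carried many of the differences between the sorts. Of 41 tested, 18 had a higher effect in the Lgr5+ sort, where 1.54% of all genes did (median difference 1.33, against 0.06 for all genes), and in traced cells 17 of 38 were lower in the knockout, where 4.29% of all genes were. Cyp3a11 (6.14), Gstm1 (3.58) and Ces2a (2.62) were among the named genes, with Apoc2 (3.85), Guca2b (3.01), Leap2 (5.00) and Clps (4.23). Of 18 brush border enzymes 7 differed in the same direction, and of 14 Paneth markers 12. With traced and Lgr5+ members over 5% secretory marker UMIs left out, the counts were 14 of 40 xenobiotic genes, 3 of 16 brush border enzymes and 8 of 14 Paneth markers, where 0.929% of 6242 genes were called in that direction. The number of genes called ranged from 36 without traced KO library 2 to 183 without traced KO library 1.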

How the data were processed

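The deposited files held UMI counts per gene and barcode, which the authors made from 10x Genomics 3′ libraries with Cell Ranger 6.1.1 on mm10 per the labels, while the matrix headers name Cell Ranger 4. The study's limits on genes, mitochondrial UMIs and highest UMI count were applied to the deposited counts, with a minimum of 1000 UMIs added here and without the study's DoubletFinder step, and classes were cut from per-cell counts as described above. The 4 Lgr5+ libraries held 2 replicates per genotype. UMIs were summed over members per library and tested with edgeR 4.0.16 (R 4.3.3, TMM scaling, filterByExpr, quasi-likelihood F test, Benjamini-Hochberg adjustment over all genes tested). CPM in the text are plain counts per 1000000 UMIs over the summed members, and fold changes come from the TMM-scaled fit. Class contrasts are log2 ratios of CPM with 10 added, for genes of at least 50 CPM in either class, with no test, so that ratios of low genes are understated. Differences of genotype effects were interaction terms over summed classes or sorts. On data simulated for the genotype contrast of early enterocytes (8075 genes), the test called 96, 70, 84 and 100% of genes changed by -2, -1, 1 and 2 on the log2 scale. These shares are of 50 genes each, drawn only from genes with at least 100 UMIs summed over the 4 libraries. All genes were simulated with 1 common spread between libraries. Recovery of genes with lower counts or a wider spread was therefore not tested, and for them these shares do not hold. Doublets were ranked with Scrublet in scanpy 1.11.5. Its automatic threshold marked 1, 0, 4 and 1518 barcodes, so the top scores were marked at 0.8% per 1000 barcodes instead, which took in 1, 8, 6 and 34 members. They stayed in unless stated. Named genes were Setdb1 and the markers, the 10 called genes of smallest p in each direction of each test whose libraries did not overlap between genotypes, genes called in a list, up to 4 genes of highest mean per list, and the 10 of largest ratio in each class contrast. Mitochondrial, ribosomal and unnamed gene models were counted but not named, and results of 2 further genes are not reported here. The sterol and MHC class II genes, with Sqle and Msmo1 among them, and Gsta1 were named after their values were seen. The same holds for Creb3l3, Cps1, Mttp, Mptx1, Plscr1, Hdhd3 and Nat8f5. Counts and lists over the called named genes leave out Mptx1, Plscr1, Hdhd3 and Nat8f5. The members and lists were chosen with earlier results of these data known. Alternatives changed the rule limits, scaling, low-count filter, doublets, secretory members, depth and libraries. Intervals cover counting error only.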

Additional observations from a re-analysis of the deposited data

Results flagged for a closer look

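All genes below were picked out because the genotype effect in early enterocytes of the Lgr5+ sort differed from that in another class or sort by an interaction test at an adjusted p under 0.05. Against mature enterocytes the difference in log2 fold change was 5.09 for Ghrl, 0.48 for Reg1, -2.52 for Cd74, -10.39 for Tm4sf4, -1.79 for Guca2a, -3.80 for S100a6, -1.83 for H2-Ab1, -2.05 for H2-Aa and -3.97 for Clca1.

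Against dividing cells it was 2.00 for Krt18, 4.39 for Reep5, 2.31 for Selenom, 10.07 for Nrgn, 4.82 for Rgs13, 6.08 for Lrmp, 6.16 for Sh2d6, 8.96 for Rac2 and 6.44 for Tuba1a. The dividing class of the first wild-type library had 7 cells.

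Against the lineage-traced sort it was 5.00 for Leap2, 5.52 for Defa21, 5.06 for Defa22, 12.13 for Cyp2c55, 6.14 for Cyp3a11, 3.58 for Gstm1, 4.23 for Clps, 3.85 for Apoc2, 3.01 for Guca2b and 2.62 for Ces2a. It was -3.21 for Adh6a, -2.46 for Pccb, -1.82 for Dmbt1, -9.77 for Gcg, -4.43 for Tspan6, -2.28 for Alox5ap, -1.54 for Gpx1, -1.88 for Emc9, -2.76 for Pbld1 and -1.49 for Polr2l. Leaving out each of the 8 libraries in turn, the call was lost 6 times for Gpx1, 5 for Polr2l, 4 for Emc9, 3 for Pbld1 and 2 each for Alox5ap, Tspan6 and Gcg. The Gcg value rests on single cells, since 1 member held 222 of 223 UMIs in traced KO library 2 and 175 of 177 in Lgr5+ WT library 1. Values for genes with a group at or near 0 UMIs (Tm4sf4, Nrgn and Cyp2c55) depend on the prior count and set no size. No value was tested for outliers, since no group had more than 2 libraries.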

How the results depend on the processing

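The 56 genotype calls in early enterocytes became 230 with no low-count filter, 22 with the enterocyte limit at 2% and 25 to 133 without 1 library each (27 without WT 1, 25 without WT 2, 114 without KO 1, 133 without KO 2). Over the 35 called named genes and all alternatives, 493 of 587 fits kept the call, 93 lost it and 1 reversed (AA467197 at 0.0784 with members thinned). Abhd17a, Adh6a, Alad, Lamtor3, Pccb, Plscr2, Reg3b and Tmem252 kept it in every fit.

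The replicate numbers do not mark shared animals, and same-numbered libraries deviated together with r = 0.0398 over 8292 genes. With the replicate number as a block the calls were 167 for genotype, 3 against mature, 0 against dividing and 139 against lineage-traced cells.

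The 12 interaction calls against mature cells became 4 with the 2% limit and 3 to 18 without 1 library each. The 11 against dividing cells became 19 without the filter, 0 with the 2% limit, 25 without doublets and 13 to 46 without 1 library each. The 115 against lineage-traced cells became 69 without members over 5% secretory UMIs and 36 to 183 without 1 library each. Signs reversed for Car4 (0.0210 without KO 1, range -0.52 to 0.0210 over libraries), Clca1 (0.66 without KO 2, range -4.92 to 0.66), Gcg (1.95 without traced KO 2, range -10.87 to 1.95) and, with the 2% limit, Krt18 (-0.13), Reep5 (-5.46), Selenom (-6.24) and Rgs13 (-1.39). The share difference was -1.87 as a percentage of enterocytes. The replication difference was 2.83 points unthinned and 0.0559 with the 2% limit, and that of variation was -0.0649 with the 2% limit. The 201 genes 2-fold apart from mature cells became 130 with the mature limit at 0.25% and 129 with the 2% limit. Where a genotype is left with 1 library, that library is assumed to vary like the others. The causes were not tested. A limit of under 3 secretory UMIs left 1 member in a library and gave no value.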
